A study of Mus musculus with 8 samples.

Results

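Collagen and structural matrix genes encode the proteins of the extracellular matrix and the enzymes that fold and crosslink them. The rule that chose them uses gene names and functions and no measured value, though it was set with earlier results of these data known: 7 fibrillar collagens, 9 genes of the basement membrane, 7 network and fibril-associated collagens, 9 glycoproteins and elastic fibre genes, 4 proteoglycans and 4 genes of crosslinking and folding. Of the 40 genes listed, 39 had a probe on the array, under 56 of its 39429 probes. No probe was matched to Col12a1, a fibril-associated collagen.

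The samples were 2 mouse cell lines grown as an indirect co-culture, in which a porous membrane separates the lines and only soluble products pass. 3T3L-1, better known as 3T3-L1, is a line of embryonic fibroblasts that can become fat cells and is used as a model of the pre-adipocyte, and Raw264.7 is a macrophage-like line. RNA came from the cells of the lower well, after 48 h with no hormone, with serotonin (100 µM), with cortisol (100 µM) or with both as cortisol-serotonin, so that each of the 4 conditions had 1 array in each line and 8 arrays were made in all. Every sample, the untreated ones included, came from co-culture, and the hormones were dissolved in DMSO. The study asked how these hormones of stress change pre-adipocytes that are grown together with macrophages.

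Fibroblasts secrete most of the collagen of connective tissue. Collagen I and III assemble into fibrils, collagen IV and laminins form the sheet of the basement membrane that surrounds each fat cell, and collagen VI forms beaded filaments around cells and is abundant in adipose tissue. Pre-adipocytes exchange a fibrillar matrix for a basement membrane as they become fat cells, and macrophages make little of either.

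Each array gave a ratio of the sample (Cy5) to a common reference (Cy3), written here as log2, and a gene was counted as measured where a probe was well above the local background in both channels. The median Cy5 intensity of an array lay between 62 and 79 units for 3T3L-1 cells and between 51 and 103 for Raw264.7 cells, with backgrounds of 26.5 to 28 and 0 saturated spots. The highest of these medians, 103, was that of the Raw264.7 array labelled serotonin. Before normalization the median log2 ratio was 0.42 on the untreated 3T3L-1 array. It was -0.31, -0.57 and -0.49 on the serotonin, cortisol and cortisol-serotonin arrays of that line. Each condition had 1 array, so a treated array was set against the untreated array with no test, and the number of arrays limits the precision. The 4 arrays of each line lay on a slide of their own, and each condition had the same position on both slides. Line and slide, and condition and position, therefore cannot be told apart.

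The hormone labels were checked with 5 genes that glucocorticoids such as cortisol are known to induce. In 3T3L-1 cells Fkbp5, a chaperone of the glucocorticoid receptor, had a log2 difference from the untreated array of 1.32 (error 0.30) on the array labelled serotonin, 0.14 (error 0.30) on that labelled cortisol and 1.45 (error 0.31) on that labelled cortisol-serotonin. Zbtb16, a transcriptional repressor, gave 1.94, -0.19 and 1.96, and Tsc22d3, another glucocorticoid target, 0.41, -1.06 and 0.77. Dusp1, a phosphatase, gave 0.77, 0.08 and 0.60, and the clock gene Per1 0.38, -0.41 and 0.62. In 3T3L-1 cells these genes went against the labels, since they were higher under the label serotonin and not, or by less, under the label cortisol. In Raw264.7 cells, where Zbtb16 was not measured, Tsc22d3 gave 0.62, -0.29 and 0.52 and Dusp1 0.36, -0.58 and 0.16. There Fkbp5 gave 0.33 (error 0.36), -0.18 and 0.0059, and Per1 gave 0.04, -0.38 and -0.29, so that on the cortisol-serotonin array of this line the genes did not share a direction. Whether the labels cortisol and serotonin were exchanged was not tested. Arrays keep the names of their labels here, and all hormone directions depend on them.

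Of the 39 genes, 30 were measured on each of the 4 arrays from 3T3L-1, 22 on all 4 of Raw264.7 cells and 21 on all 8. In 3T3L-1 cells the probes for Col11a1, a minor fibrillar collagen, Col15a1, a collagen at the edge of basement membranes, Eln (elastin) and Lum (lumican, a small proteoglycan that binds fibrils) were not well above background on any array. Col8a1, a network collagen, was above it on 2 arrays. Col14a1, a fibril-associated collagen, and Tnc (tenascin C) were above it in the Cy5 channel on all 4, but in both channels on only 2 arrays for Col14a1 and 1 for Tnc. Col1a1, the main chain of collagen I, and Fbln2 (fibulin 2) were bright, but the scanner software had marked spots of theirs as outliers, on 1 array for Col1a1 and on 3 for Fbln2. With those spots kept, the log2 ratio of Col1a1 was 0.99 on the untreated array, 0.19 on the serotonin array, 0.70 on the cortisol array and 0.42 on the cortisol-serotonin array. That of Fbln2 was 1.25, 0.75, 0.95 and 0.73 in the same order. Both genes were highest on the untreated array.

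The levels of matrix genes set the lines apart. Fn1 (fibronectin, which binds cells to collagen) had log2 ratios of 1.29, 1.20, 0.81 and 1.09 on the untreated, serotonin, cortisol and cortisol-serotonin arrays of 3T3L-1 cells, and of -8.65, -7.71, -8.43 and -8.31 on those of Raw264.7 cells. Dcn (decorin, a proteoglycan that coats collagen fibrils) had ratios of 2.52, 2.06, 2.61 and 2.38 against -7.09, -6.61, -7.13 and -6.69. Col1a2, the second chain of collagen I, had ratios of 0.21, -0.31, 0.09 and -0.01 against -6.64, -6.18, -6.69 and -6.29. For none of these genes did the lines overlap, and the share of all genes without overlap is not given. In a limma fit over the 8 arrays with terms for line and condition, Fn1 was 663-fold higher in 3T3L-1 cells (log2 9.37, SE 0.16) and Dcn 618-fold higher (log2 9.27, SE 0.17), both with an adjusted p of 7.80e-11. The Raw264.7 Cy5 intensities were 80 to 121 units for Fn1 and 165 to 348.5 for Dcn, over a background of 28. The size of a fold is uncertain for genes so dim in that line, here and below. Among the 21 genes measured on all 8 arrays, 19 were higher in 3T3L-1 cells at an adjusted p under 0.05 and 1 was lower. Over the 10995 genes tested the fit called 38.5% higher and 35.9% lower, and the median log2 difference was 5.12 for the matrix genes and 0.04 for all genes. In a bulk sample fewer cells of a type and less RNA per cell cannot be told apart.

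**Figure D1:**
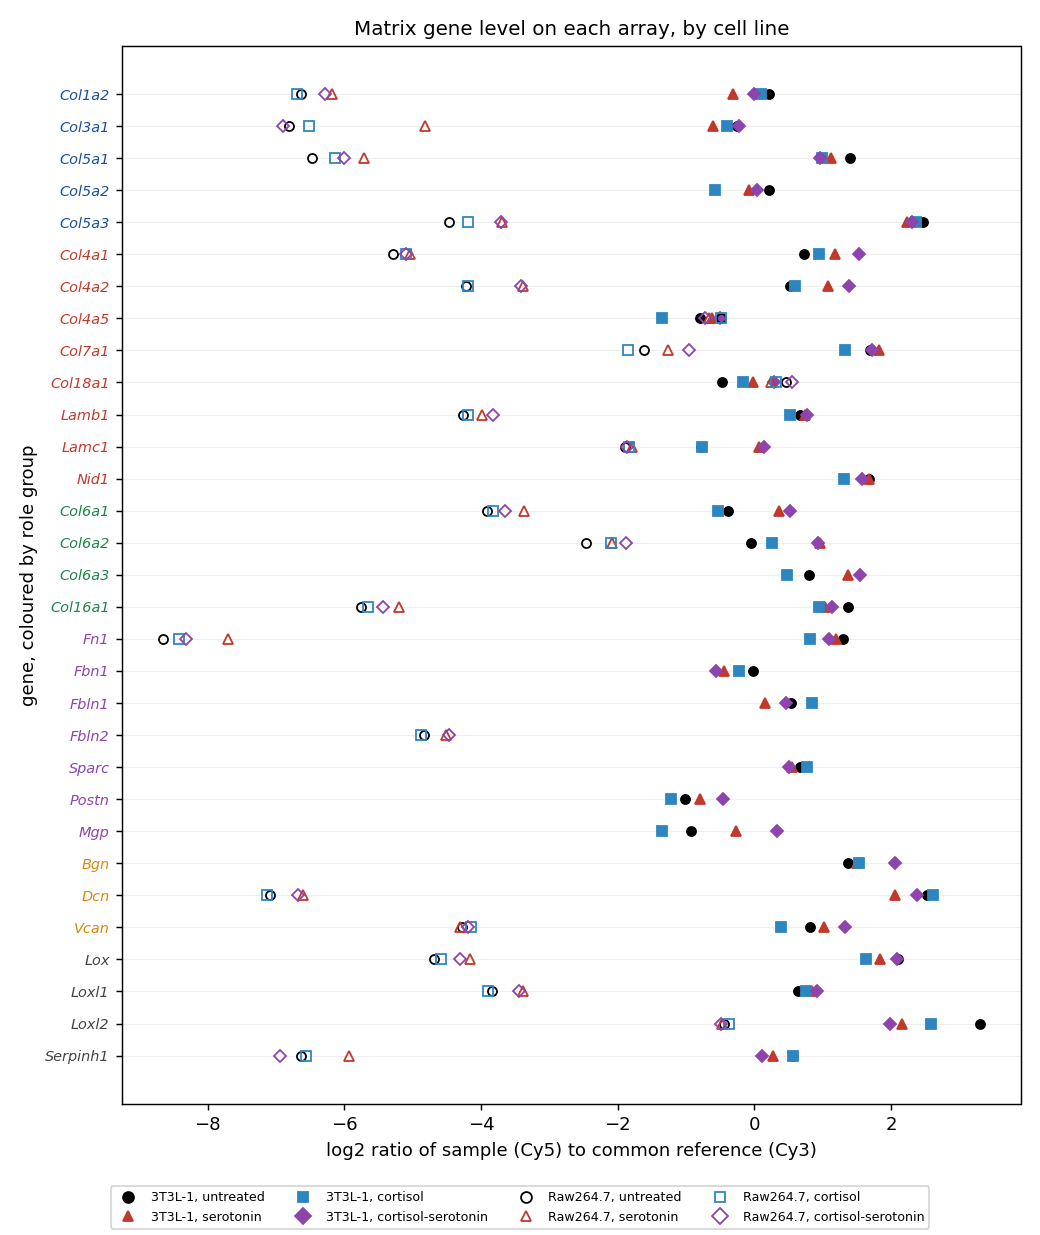
Log2 ratio of sample to common reference (horizontal axis) of the 31 matrix genes measured on all 4 arrays of at least 1 cell line (vertical axis, coloured by role). Filled symbols are arrays of 3T3L-1 cells and open symbols arrays of Raw264.7 cells, with 1 symbol per array and its shape giving the condition. The lines lie apart for most genes and meet at Col4a5 and Col18a1. Col16a1, Lox and Loxl2 are drawn from more probes in 3T3L-1 than in Raw264.7 cells.

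All 4 fibrillar collagens tested were higher in 3T3L-1 cells. Col5a1, the chain that starts collagen fibrils, was 147-fold higher (log2 7.20, SE 0.16), Col1a2 87.4-fold higher (log2 6.45, SE 0.16), Col5a3, a further collagen V chain, 81.9-fold higher (log2 6.36, SE 0.17) and Col3a1, which forms thin fibrils with collagen I, 59.4-fold higher (log2 5.89, SE 0.33). In the basement membrane the type IV chains Col4a1 and Col4a2, which are made as partners, were 74.9-fold and 25.9-fold higher. The laminin chain Lamb1 was 26.8-fold higher, and Col7a1, which anchors epithelial basement membranes, was 8.37-fold higher. The laminin chain Lamc1 was closer between the lines, 2.85-fold higher in 3T3L-1 cells (log2 1.51, SE 0.17, limma adjusted p 1.33e-05).

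Col18a1 and Col4a5 stood apart from the rest. Col18a1, a basement membrane collagen whose end is released as endostatin, had log2 ratios of -0.47, -0.02, -0.17 and 0.29 in 3T3L-1 cells and of 0.46, 0.25, 0.32 and 0.55 in Raw264.7 cells, in the order untreated, serotonin, cortisol and cortisol-serotonin. It was lower in 3T3L-1 cells (log2 -0.49, SE 0.13, limma adjusted p 0.0066), though the highest 3T3L-1 array lay just above the lowest Raw264.7 array. The call was lost in the Cy5 channel alone and with the brightest probe. Col4a5, another type IV chain, did not pass the test (log2 -0.22, SE 0.16, limma adjusted p 0.236), and its arrays overlapped between the lines.

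The collagen VI chains tested were higher in 3T3L-1 cells, Col6a1 12.8-fold and Col6a2 6.30-fold. Col16a1, a fibril-associated collagen, was 87.3-fold higher. Vcan (versican, a large proteoglycan of loose matrix) was 34.7-fold higher. Of the enzymes, Lox (lysyl oxidase, which crosslinks collagen and elastin) was 65.9-fold higher, its relatives Loxl1 and Loxl2 21.5-fold and 5.82-fold higher, and Serpinh1 (the collagen chaperone HSP47) 119-fold higher. All of these passed the limma fit, and they also did so with each array left out in turn.

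Other genes were below background on every Raw264.7 array, which gives a bound. Nid1 (nidogen, a linker of laminin and collagen IV) was at least 23.1-fold higher in 3T3L-1 cells, Fbn1 (fibrillin 1, the core of microfibrils) at least 15.3-fold, Mgp (matrix Gla protein, an inhibitor of calcification) at least 5.25-fold, Col5a2 at least 3.23-fold and Postn (periostin, a collagen-binding glycoprotein) at least 2.59-fold. The bounds compare the Cy5 channel after loess and between-array normalization of the channel and are open to dye bias, since no dyes were swapped. Each Raw264.7 array enters with the gene's own value or the lowest value called above background, whichever is larger. A gene below background can lie above that lowest value, so the bounds are approximate. Nid1 is an average of 3 probes, which read 335.5, 24153 and 1344.5 units on the untreated 3T3L-1 array. With outlier spots kept, which was chosen after seeing the data, Fbln2 was 48.3-fold higher (log2 5.59, limma adjusted p 2.97e-10) and Sparc, a collagen-binding glycoprotein, 34.6-fold higher (log2 5.11, limma adjusted p 8.81e-11).

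Genes that work on the matrix were read from lists of the same kind. Of 17 genes of collagen modification and processing tested, 16 were higher in 3T3L-1 cells and 0 lower, among them P3h4, a partner of the prolyl hydroxylases (log2 5.74), Bmp1, which trims procollagen (log2 4.32), and P4ha2, a prolyl hydroxylase (log2 4.26). Of 13 matrix receptors 12 were higher and 1, Itga7, was lower, with the collagen receptor Ddr2 at log2 5.47. Of 15 genes of TGF-beta signalling, the main inducer of matrix genes, 10 were higher and 3 lower (Tgfb1, Smad4 and Nrros, the last at log2 -5.56). Of 12 other structural matrix genes 10 were higher, led by the basement membrane proteoglycan Hspg2 (log2 6.65), and 1 was lower, Emilin2 (log2 -5.22). The background shares of called genes given above apply to each of these counts.

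The labels of the lines were checked with markers outside the matrix. Of 15 macrophage markers tested all 15 were lower in 3T3L-1 cells, and of 5 fibroblast markers all 5 were higher. The fibroblast marker Nt5e was not among those tested and went the other way. It was above background on 1 array of 3T3L-1 cells and on 3 of Raw264.7 cells. Of 23 macrophage markers with a probe, 15 were above background on all 4 arrays of 3T3L-1 cells, among them Ptprc, Csf1r, Itgam, Lyz2 and Cd14, and 5 on none of them (Adgre1, Spi1, Cybb, Ncf1 and Cd84). With outlier-marked spots kept, 9 of 19 fibroblast markers were above background on all 4 arrays of Raw264.7 cells. Among them were Pdgfrb, Acta2 and S100a6, and also Thy1 and Twist2, which reached only 3 arrays with those spots left out. Either way 5 were above it on none (Pdgfra, Prrx1, Cnn1, Cd34 and Fap). Each line thus also gave signal for markers of the other.

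Between hormone conditions the matrix genes of 3T3L-1 cells differed by far less than between the lines. Over the 4 arrays the range of a gene had a median of 0.62 (log2) for the 30 matrix genes and 0.40 for all 12962 genes, and 5 of the 30 had a range of at least 1, against 4.30% of all genes. These 5 were the chains of collagen VI (Col6a1, Col6a2 and Col6a3), Mgp and Loxl2. The array with the highest value was cortisol-serotonin for 14 genes, untreated for 11, cortisol for 3 and serotonin for 2.

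Collagen VI was higher on both arrays that carry the label serotonin. Col6a1 had log2 ratios of -0.39 (untreated), 0.35 (serotonin), -0.53 (cortisol) and 0.52 (cortisol-serotonin). Col6a2 had ratios of -0.05, 0.96, 0.25 and 0.93 in that order, and Col6a3 of 0.80, 1.37, 0.48 and 1.54. For each chain both arrays with serotonin lay above both without it. The share of all genes with this split is not given. A looser condition, higher on serotonin than untreated and on cortisol-serotonin than cortisol, was met by 28.5% of all genes. Against the untreated array, Col6a2 was 1.00 higher on the log2 scale on the serotonin array (error 0.31 from the scanner's spot errors), which is at the 2-fold threshold and fell short of it with no background correction and in the Cy5 channel alone, 0.30 higher on the cortisol array and 0.98 higher on the cortisol-serotonin array. Col6a1 was 0.74 higher, -0.15 and 0.90 higher, and Col6a3 0.56, -0.32 and 0.74.

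The upstream sequences of these chains are printed beside those of Col1a2 and Col3a1, because collagen VI was higher on both arrays with serotonin and these fibrillar collagens were not. Each is the 250 bases before the annotated start of the gene, from RefSeq (GRCm38.p6), and for Col6a2 the window is that furthest upstream. Col6a1 lies at chr10:76726045-76726294 (minus strand), Col6a2 at chr10:76623631-76623880 (minus), Col6a3 at chr1:90843972-90844221 (minus), Col1a2 at chr6:4505368-4505617 (plus) and Col3a1 at chr1:45311288-45311537 (plus). Capitals mark matches, on either strand, to 6 motifs. The TATA box was searched as TATAAA and the CCAAT box by the letters of its name. The GC box, bound by Sp1, was searched as GGGCGG and the site of AP-1 factors as TGANTCA. The site of TEAD factors was searched as GGAATG, and the core of a glucocorticoid response element was searched as AGAACA.
Col6a1: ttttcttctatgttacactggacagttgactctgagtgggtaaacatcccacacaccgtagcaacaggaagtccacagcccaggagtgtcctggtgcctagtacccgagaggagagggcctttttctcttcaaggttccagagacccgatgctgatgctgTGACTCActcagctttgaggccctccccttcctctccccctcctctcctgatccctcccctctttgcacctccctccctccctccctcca
Col6a2: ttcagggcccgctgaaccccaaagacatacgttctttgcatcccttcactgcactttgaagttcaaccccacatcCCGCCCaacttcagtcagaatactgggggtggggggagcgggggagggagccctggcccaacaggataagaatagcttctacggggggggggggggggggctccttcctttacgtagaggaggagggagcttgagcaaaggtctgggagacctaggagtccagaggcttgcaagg
Col6a3: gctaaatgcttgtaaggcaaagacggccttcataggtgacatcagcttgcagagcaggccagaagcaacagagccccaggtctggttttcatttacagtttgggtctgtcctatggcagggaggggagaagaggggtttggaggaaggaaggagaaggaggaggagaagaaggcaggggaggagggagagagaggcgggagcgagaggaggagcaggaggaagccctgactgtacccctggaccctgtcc
Col1a2: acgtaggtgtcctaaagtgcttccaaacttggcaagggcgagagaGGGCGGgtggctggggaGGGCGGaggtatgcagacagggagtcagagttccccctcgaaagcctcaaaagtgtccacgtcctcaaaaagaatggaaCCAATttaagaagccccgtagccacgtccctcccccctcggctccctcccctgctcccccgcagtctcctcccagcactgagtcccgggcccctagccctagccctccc
Col3a1: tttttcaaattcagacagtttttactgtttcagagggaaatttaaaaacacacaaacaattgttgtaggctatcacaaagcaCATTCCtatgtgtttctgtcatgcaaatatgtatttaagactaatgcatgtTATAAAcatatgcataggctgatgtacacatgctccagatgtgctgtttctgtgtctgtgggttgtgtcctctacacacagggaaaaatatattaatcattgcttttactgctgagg
The window of Col6a1 held an AP-1 match, that of Col6a2 a GC box match (its other window, at chr10:76623405-76623654, held 3 GC box matches and a TEAD match), that of Col6a3 none, that of Col1a2 GC and CCAAT box matches and that of Col3a1 TATA box and TEAD matches. Of the matrix genes 27 had a window, 32 windows in all. GC box letters stood in 22 of these (68.8%) and in 32.7% of 32851 windows of all genes, CCAAT box letters in 12 (37.5% against 33.8%), TATA box letters in 4 (12.5% against 12.4%) and TEAD letters in 4 (12.5% against 12.6%). The core of the glucocorticoid response element stood in 3 (9.38% against 16.1%) and the AP-1 letters in 1 (3.12% against 6.75%). A match describes letters and is not a bound site. Col4a1 and Col4a2 start head to head on chromosome 8, with windows at 11312827 to 11313076 (minus) and 11312555 to 11312804 (plus), so that each window lies within the other gene.

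On the serotonin array of 3T3L-1 cells 1 of 30 matrix genes was at least 2-fold higher (Col6a2) and 1 at least 2-fold lower (Loxl2), against 0.522% and 0.714% of 13590 genes. Loxl2, a crosslinking enzyme, had log2 ratios of 3.30 (untreated), 2.16 (serotonin), 2.59 (cortisol) and 1.99 (cortisol-serotonin). It was highest on the untreated array, and its log2 differences were -1.14 (error 0.40), -0.71 and -1.31 (error 0.39). Its brightest probe read 4.01, 2.47, 2.98 and 2.22 and its other usable probe 2.58, 1.85, 2.19 and 1.76, so both gave the same order of arrays with unequal size. The median log2 difference was 0.04 for the matrix genes and 0.01 for all genes, with 15 genes above 0 and 15 below, and 14 of the 30 differences were smaller than their error.

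On the cortisol array 0 of 32 matrix genes were 2-fold changed, against 0.423% higher and 1.22% lower of 13718 genes. The median difference was -0.15 for the matrix genes and 0.01 for all genes. Of the 32 matrix genes 21 were below 0, against 6697 of all 13718, and 17 were within their error. The largest difference among these 32 was that of Col5a2, a chain of collagen V, at -0.80. On the cortisol-serotonin array 1 of 31 was at least 2-fold higher (Mgp) and 1 lower (Loxl2), against 0.784% and 0.642% of 13400 genes, and the medians were 0.03 and 0.02.

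Mgp had the widest range of the matrix genes in 3T3L-1 cells. Its log2 ratio was -0.93 on the untreated array, -0.26 on serotonin, -1.35 on cortisol and 0.34 on cortisol-serotonin, from Cy5 intensities of 205, 833, 238 and 1022 units. Both arrays with serotonin were above both without it, a split whose share over all genes is not given. The log2 difference of Mgp from the untreated array was 0.67 on serotonin, -0.42 on cortisol and 1.27 (error 0.31) on cortisol-serotonin.

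**Figure D2:**
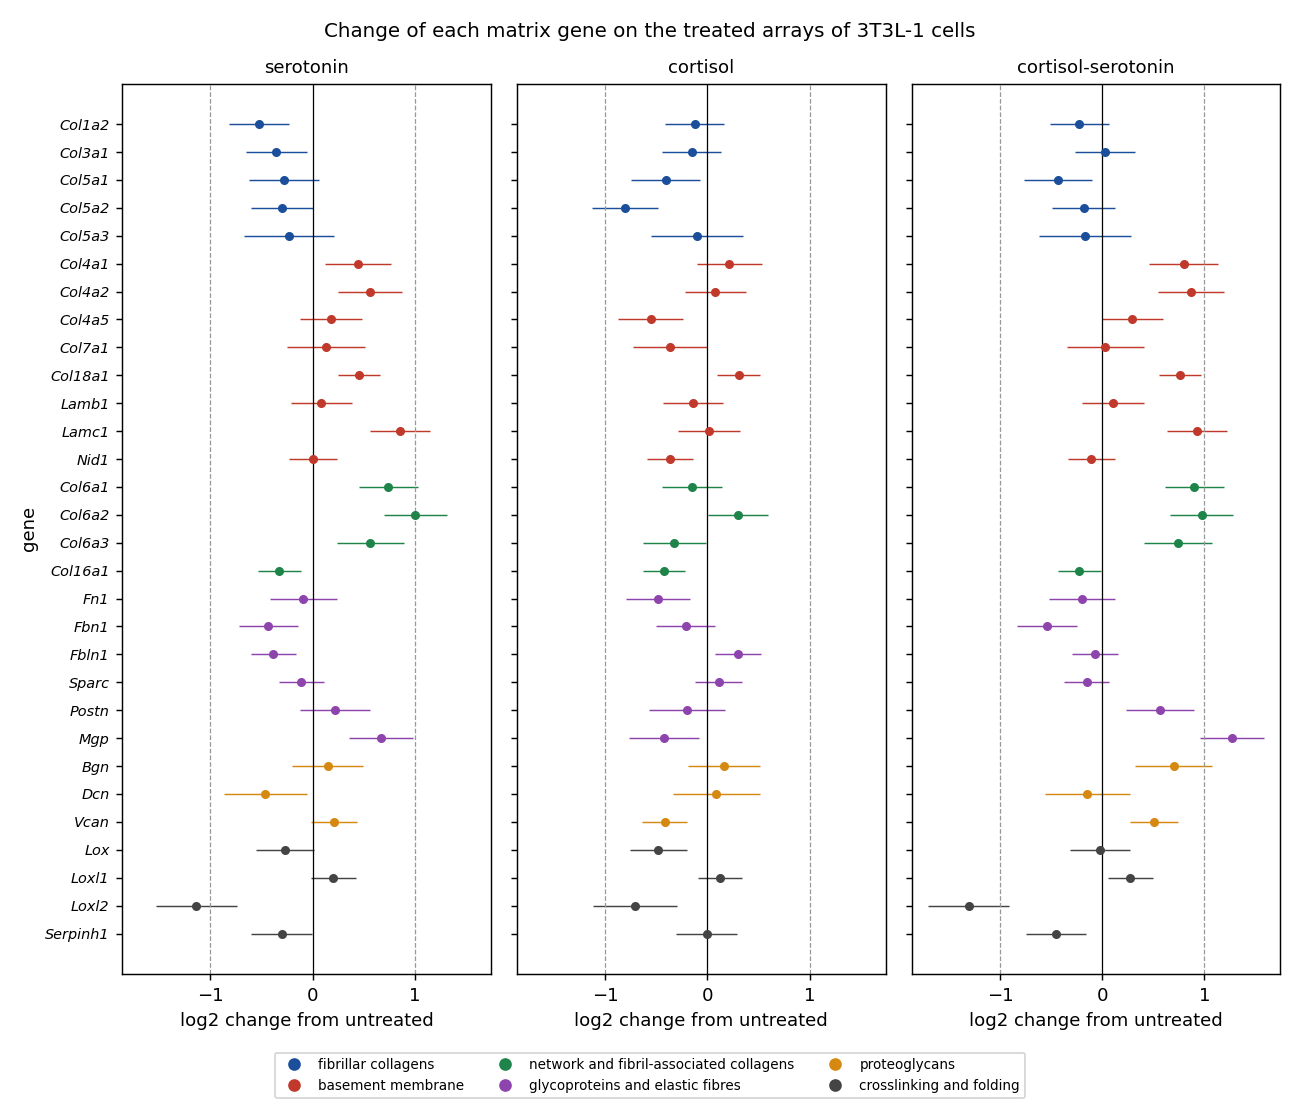
Log2 difference from the untreated array (horizontal axes) of the 30 matrix genes measured on each of the 4 arrays from 3T3L-1 cells (vertical axis), for the serotonin, cortisol and cortisol-serotonin arrays. Points are coloured by role, bars are the error from the scanner software's spot errors, and dashed lines mark 2-fold. Loxl2 passes the lower line on the serotonin and cortisol-serotonin arrays, Col6a2 reaches the upper line on serotonin and Mgp passes it on cortisol-serotonin.

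The label serotonin can be read in 2 comparisons that share no array, namely serotonin minus untreated and cortisol-serotonin minus cortisol. In 3T3L-1 cells 15 of 30 matrix genes were higher in both (28.5% of all genes) and 9 were lower in both (26.8%). In the basement membrane 7 of 8 genes were higher in both and 0 lower, and of the network and fibril-associated collagens 3 of 4 were higher in both. None of the 5 fibrillar collagens was higher in both and 3 were lower. Lamc1 was 0.85 and 0.91 higher on the log2 scale, Col4a1 0.45 and 0.58, Col4a2 0.56 and 0.79, Col6a1 0.74 and 1.05, and Mgp 0.67 and 1.69. Loxl2 gave -1.14 and -0.60.

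**Figure D3:**
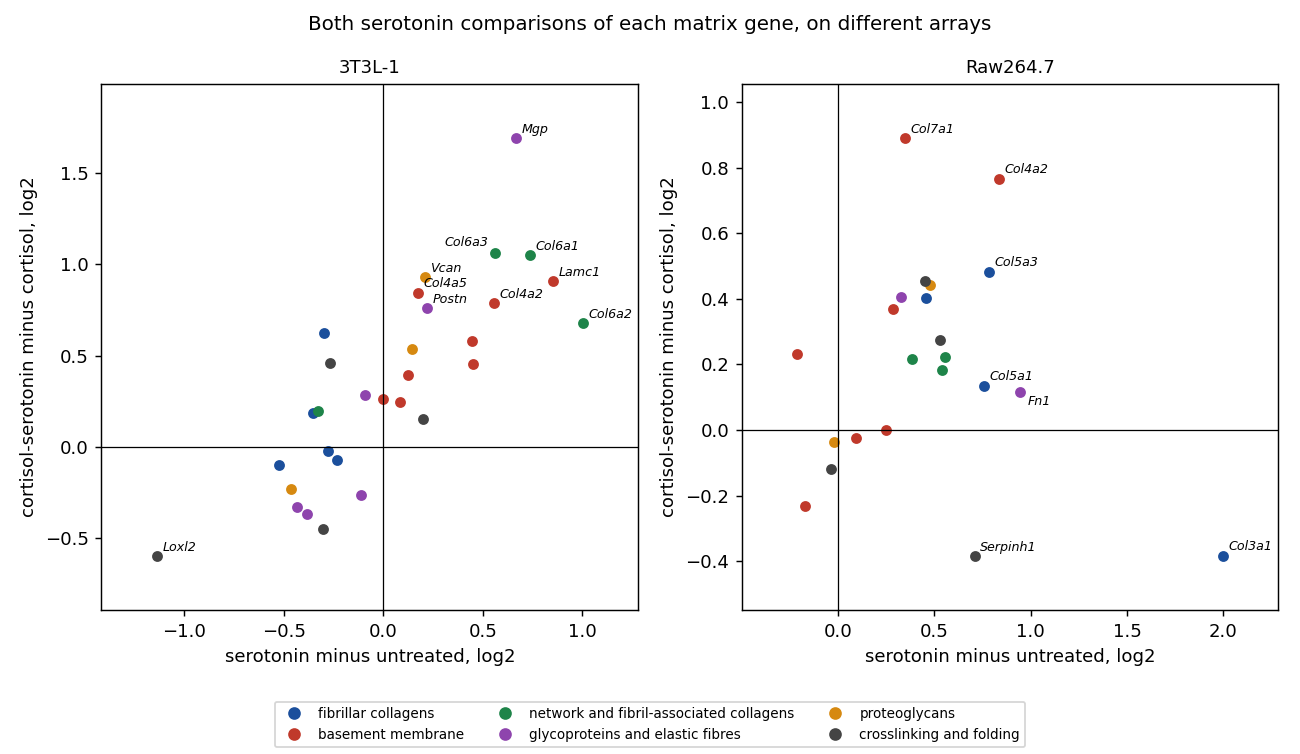
Log2 difference serotonin minus untreated (horizontal axes) against cortisol-serotonin minus cortisol (vertical axes) for the matrix genes of 3T3L-1 cells (left, 30 genes) and Raw264.7 cells (right, 22 genes). Each point is a gene coloured by role. At the upper right on the left are Mgp, collagen VI, Lamc1 and Col4a2, and Loxl2 is at the lower left; on the right Col3a1 lies furthest to the right, with -0.38 on the vertical axis.

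The same values were tested in a limma fit of the 8 arrays with additive effects of serotonin and cortisol within each line. At an adjusted p under 0.05 it called 0 of 30 matrix genes for serotonin in 3T3L-1 cells, where 0.44% of 12962 genes were called. At an unadjusted p under 0.05 there were 15 of the 30, 11 higher and 4 lower, against 13.5% of all genes. Lamc1 had an effect of 0.88 (SE 0.14, adjusted p 0.0528 in limma), Col6a1 of 0.90 (SE 0.17, adjusted p 0.0803), Col6a2 of 0.84 (SE 0.16, adjusted p 0.0803), Col6a3 of 0.81 (SE 0.18, adjusted p 0.124) and Mgp of 1.18 (SE 0.25, adjusted p 0.117). Loxl2 had an effect of -0.87 (SE 0.17, adjusted p 0.0975). All of these missed the threshold.

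By role, the fitted serotonin effect in 3T3L-1 cells was above 0 for 8 of 8 basement membrane genes (median 0.48), 3 of 4 network and fibril-associated collagens (0.83), 3 of 6 glycoproteins (-0.05), 2 of 3 proteoglycans (0.34), 2 of 4 crosslinking genes (-0.14) and 1 of 5 fibrillar collagens (-0.15). The median was 0.16 for all 30 and 0.01 for all genes, of which 6736 of 12962 were above 0. In the basement membrane Col4a2 had 0.67, Col4a1 and Col4a5 0.51 each and Col18a1 0.45, and Vcan and Postn had 0.57 and 0.49. The 4 genes lower at an unadjusted p under 0.05 were Loxl2, Fbn1 (-0.38), Fbln1 (fibulin 1, a microfibril partner, -0.38) and Dcn (-0.35). With outlier spots kept, Col1a1 had -0.54 (adjusted p 0.285 in limma) and Fbln2 -0.36 (adjusted p 0.363).

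The call depended on the arrays of the other line. With the 4 arrays of 3T3L-1 cells fitted alone, limma called 6 of 30 matrix genes for serotonin and 336 of all genes. These were Mgp (adjusted p 0.000364), Col6a1 (0.00663), Lamc1 (0.00729), Col6a2 (0.0127) and Col6a3 (0.0193), all higher, and Loxl2 (0.0105), lower. The 8-array fit without any 1 of the 4 Raw264.7 arrays gave the same 6 genes, but this is no further check. Raw264.7 cells then have as many arrays as terms and add no spread, so the fit repeats that of 3T3L-1 cells alone. A gene measured in both lines has 2 residual degrees of freedom in the fit of 8 arrays and 1 in these smaller fits. Each is the departure of the combined array of a line from the sum of the separate hormone effects. Macrophage markers moved with the label serotonin too. The 15 measured on all 4 arrays had a fitted effect below 0 in 15 of 15 cases, against 6226 of all 12962 genes, with a median of -0.35. Their summed Cy5 intensity over 23 genes lay between 18451 and 23420 units on the 3T3L-1 arrays. The fibroblast markers had a median effect of -0.06 over 13 genes. Their part in the result was not tested.

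For cortisol no matrix gene of 3T3L-1 cells passed the threshold. The limma fit called 0 of 30 and 0% of 12962 genes, and at an unadjusted p under 0.05 there were 1 of 30 (Loxl2, -0.44) and 2.86% of all genes (371). The fitted effects had a median of -0.0041, with 15 genes above 0 and 15 below. The sum of the separate hormone effects was set beside the combined array, and the matrix genes departed from it by a median of 0.29 and all genes by 0.28.

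In Raw264.7 cells some measured matrix genes had a Cy5 intensity near background, as for Fn1 (80 to 121 units). Others were far brighter, such as Lamc1 (4149 to 4862 units) and Fbln2 (2290 to 5159 units). Most of these genes had a higher log2 ratio on the serotonin array than on the untreated array. On that array 1 of 23 genes was at least 2-fold higher (Col3a1) and 0 were lower, against 0.638% and 0.276% of 12697 genes. The median difference was 0.45 for the matrix genes and -0.04 for all genes, with 18 matrix genes above 0 against 5242 of all 12697. Of the 23 differences 17 were within their error. The cortisol array had 0 of 24 genes past 2-fold (0.0377% higher and 0.0453% lower of 13252), all 24 within their error and a median of 0.07. The cortisol-serotonin array had 0 of 22 (0.18% and 0.0749% of 13360), 18 within their error and a median of 0.35 against -0.01 for all genes.

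Col3a1 rested on 1 array. Its log2 ratio was -6.82 on the untreated array, -4.82 on serotonin, -6.52 on cortisol and -6.90 on cortisol-serotonin, and its Cy5 intensity 109, 103, 73 and 177 units. The serotonin array was high in the ratio and not in the intensity. The difference of 2.0 on the log2 scale (error 1.0) became 0.30 in the Cy5 channel alone, and the comparison cortisol-serotonin against cortisol gave -0.38. With the cortisol or the cortisol-serotonin array of this line left out, limma called Col3a1 for serotonin (adjusted p 1.97e-05). Serpinh1 likewise gave 0.71 and then -0.38. Col4a2 was higher in both, by 0.83 and 0.77, with log2 ratios of -4.22, -3.39, -4.19 and -3.42 on the untreated, serotonin, cortisol and cortisol-serotonin arrays. Col7a1 gave 0.35 and 0.89.

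Of the 22 matrix genes measured on all 4 Raw264.7 arrays, 14 were higher in both comparisons (19.0% of all genes) and 3 were lower in both (33.6%). The fit called 0 of 22 for serotonin and 0% of 12064 genes. At an unadjusted p under 0.05 there were 9 of 22, all higher, and 3.55% of all genes (428). They were Col4a2 (0.80, adjusted p 0.396 in limma), Col5a3 (0.63), Col7a1 (0.62), Fn1 (0.53), Dcn (0.46), Loxl1 (0.45), Col5a1 (0.45), Col1a2 (0.43) and Fbln2 (0.36). From the untreated to the serotonin array the Cy5 intensity fell for Col1a2 (1021.5 to 809 units), Fbln2 (3559.5 to 2863) and Col7a1 (478.5 to 426.5). It rose for the other genes named, for Fn1 only from 110 to 117. Of all 12064 genes 4815 had an effect above 0. The median over the 22 was 0.38 and over all genes -0.03. Markers of fibroblasts outside the matrix moved with it: 5 of 7 had an effect above 0, with a median of 0.44. Between 10 and 12 of the 19 were above background on these arrays, and the summed Cy5 intensity over 15 of them was 4357 units untreated, 5641.5 with serotonin, 4557.1 with cortisol and 5335.6 with cortisol-serotonin. Their part in the result was not tested, nor was that of the higher median intensity of the serotonin array. For cortisol the fit called 0 of 22 and 0% of genes, with 0 matrix genes and 2.72% of all genes (328) at an unadjusted p under 0.05.

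**Figure D4:**
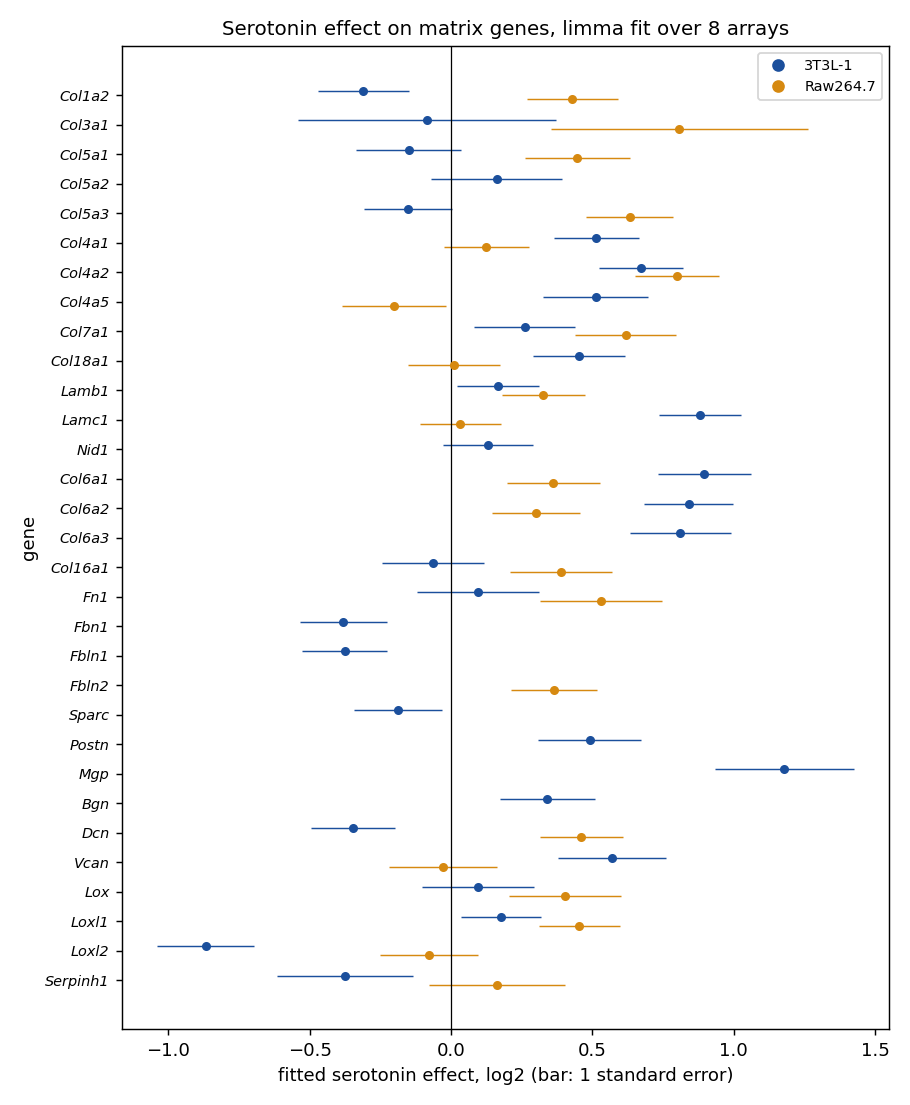
Fitted serotonin effect on the log2 scale (horizontal axis) with 1 standard error for matrix genes (vertical axis) in 3T3L-1 cells (blue, 30 genes) and Raw264.7 cells (orange, 22 genes). Lamc1 and the collagen VI chains lie between 0.81 and 0.90 in 3T3L-1 cells, and Loxl2 is at -0.87. In Raw264.7 cells 19 of the 22 lie above 0, against 4815 of all 12064 genes, and none of the 22 is past an adjusted p of 0.05.

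Whether serotonin acted differently on the lines was tested by the difference of the effects. The limma fit called 0 of 21 matrix genes and 0% of 10995 genes, and at an unadjusted p under 0.05 there were 8 of 21 against 7.53% of all genes (828). The effect was larger in 3T3L-1 cells for Lamc1 (by 0.85, SE 0.19, adjusted p 0.445), Col4a5 (0.71), Col6a2 (0.54) and Col6a1 (0.53). It was lower in 3T3L-1 cells for Dcn (-0.81), Col5a3 (-0.78), Col1a2 (-0.74) and Loxl2 (-0.51). None of these passed the adjusted threshold. The same test for cortisol called 0 of 21 and 0% of genes, with 0 matrix genes and 2.55% of all genes (280) at an unadjusted p under 0.05.

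No gene of the neighbouring lists was called for a hormone in limma. In the single comparisons of 3T3L-1 cells, Lama5, a laminin chain outside the matrix genes listed, was 1.22 higher on the serotonin array (error 0.42) and 1.28 higher on cortisol-serotonin (error 0.42). Thbs1 (thrombospondin, which activates TGF-beta) had -1.45 (error 0.31) on the cortisol array. Ltbp2, a microfibril protein, had -1.03 (error 0.31) on serotonin and Adamts2, the procollagen protease, 1.01 (error 0.30) on cortisol-serotonin. In Raw264.7 cells P3h4 and the elastic fibre protein Emilin1 had 1.41 (error 0.70) and 1.40 (error 0.48) on the serotonin array.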

How the data were processed

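The deposited scanner files hold, per spot, the median signal and background intensity of both channels, which the authors extracted with Agilent Feature Extraction 10.5.1.1 (the study's methods name another version). The deposited log10 ratio per spot and the deposited series values, which are the same log10 ratios rounded, were used as alternatives after conversion to log2, and the deposited error of the log10 ratio gave the error of a single comparison. The labels describe the Cy3 reference as an equal mixture of RNA from all samples. The methods describe it as pooled untreated cells grown alone. It cancels between arrays only where it was the same and read alike on each of them, which was not tested.

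Intensities were corrected in limma 3.58.1 (R 4.3.3) with normexp (offset 50) and loess within arrays, with control spots at weight 0. Outlier-marked spots were left out and spots averaged per probe. Probes were named by accession through the RefSeq table of GRCm38.p6, which matched 27508 of 39429 probes to 20886 genes. The value of a gene is an average over those of its probes for which both channels exceeded background on every array compared. The text names the genes that passed 2-fold on a treated array, those called in the fit of the lines, and the brightest of each role on the untreated 3T3L-1 array, and other members where a list is described.

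The fits were a limma model with line and condition, and a limma model with additive serotonin and cortisol effects within each line, with Benjamini-Hochberg adjustment over all genes. Both were tested on simulated data. Nothing says that samples came from separate cultures, so p-values measure only the spread between these arrays. In the hormone fit that spread is the departure of each line from additive effects, which limma draws toward that of all genes. It is not a spread between repeated arrays of a condition. The members, lists and glucocorticoid targets were chosen with earlier results of these data known.

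Alternatives were Feature Extraction signals, no background correction, median centring in place of loess, Cy5 alone, no filter on dim probes, the brightest probe, the series values, each array left out and each line fitted alone.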

Additional observations from a re-analysis of the deposited data

How the results depend on the processing

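Each condition has 1 array, 20 of 21 matrix genes kept their call between the lines with any array left out (range 20 to 20), and the number of arrays limits every hormone value. Dim probes limit Raw264.7 cells most. The single comparisons of 3T3L-1 cells all share the untreated array, whose median log2 ratio before loess was 0.42 and those of the treated arrays below 0. Median centring in place of loess moved all genes of 3T3L-1 cells by a median of 1.07 (serotonin), 0.59 (cortisol) and 0.99 (cortisol-serotonin) on the log2 scale, so that 23, 3 and 20 matrix genes passed 2-fold and 3, 0 and 5 after that shift was subtracted. The shares of all genes past 2-fold are not given for this setting, so these counts have no background beside them. Median centring turned the median of the matrix genes on the cortisol array to 0.67 in 3T3L-1 and to -0.020 in Raw264.7 cells. In the fit it called 19 of 30 matrix genes for serotonin in 3T3L-1 cells and 5614 of all 12962 genes, whose median was 0.72, and that line alone called 6. With an array left out the calls ranged from 0 to 6 for serotonin in 3T3L-1 cells, and from 0 to 1 for serotonin in Raw264.7 cells, for cortisol in Raw264.7 cells and for both differences between the lines. The Raw264.7 call was Col3a1, for serotonin without the cortisol or the cortisol-serotonin array and for cortisol without the untreated or the cortisol array. A line with an array left out has as many arrays as terms, so these fits take their spread from the other line alone.

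The 2-fold counts of this paragraph are given without the shares of all genes under each setting, so they have no background beside them. In single comparisons, 2-fold matrix genes numbered 1 with no background correction for serotonin in 3T3L-1 cells (Col6a2 dropped out). Col6a2 also dropped out in Cy5 alone, where Mgp entered at 1.53. For cortisol they numbered 1 each from Feature Extraction signals and the series values (Col5a2), Cy5 alone (Col1a1) and the brightest probe (Loxl2), and 4 in Cy5 alone for cortisol-serotonin. In Raw264.7 cells they numbered 2 with no background correction and 3 with no filter for serotonin, in Cy5 alone the 1 gene was Col18a1 at -2.02 and not Col3a1, and they numbered 1 each from Feature Extraction signals, Cy5 alone, the series values and outlier spots kept for cortisol-serotonin. The serotonin median of 3T3L-1 cells turned to -0.024 with no background correction, -0.0014 with no filter, -0.0046 with the brightest probe and -0.048 with outlier spots kept. The cortisol-serotonin median turned to -0.049 with Feature Extraction signals, -0.056 with no background correction and -0.047 with the series values. The cortisol median of Raw264.7 cells turned to -0.054 with Feature Extraction signals and -0.060 with the series values. The cause was not tested. Loxl2 on the serotonin array was at -0.16 with median centring and -1.54 with the brightest probe. Keeping outlier spots was chosen after seeing the data. The lines are paired by condition through the condition term of their fit, and without that term 20 of 21 matrix genes were called too. The share of all genes called without that term is not given.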
